A study of Mus musculus with 8 samples.

Results

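The genes described here encode the subunits of 4 families of neurotransmitter receptors, those for GABA, glutamate, glycine and, in its nicotinic form, acetylcholine. They were picked from the deposited table of gene models by symbol alone, where a name begins with Gabr, Gria, Grik, Grin, Grid, Grm, Glra, Glrb or Chrn followed by the subunit's letter or number, leaving out genes such as Grina that share the letters only. This gave 66 of 38172 rows, of which 19 were GABA receptor subunits, 26 glutamate, 5 glycine and 16 nicotinic. The families were chosen with the age differences of these samples already known, so the differences between ages are given as a description and are not used as support for any statement about the families. RNA came from haematopoietic stem cells (HSCs), which sit in the marrow, self-renew and form every blood lineage, of C57BL/6 mice aged 4 months (young) or 24 months (old). The cells were sorted fresh as SP-KSL-CD150+, that is, dye-excluding side population cells with Kit and Sca-1, without lineage markers and with CD150. Each age had 2 biological replicates, numbered 13 and 14, and each replicate had 2 technical libraries, for 8 libraries in all. The labels give no treatment or altered allele, and do not say how many animals a replicate pooled.

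In neurons these receptors convert a released transmitter into a current or a second messenger. GABA-A, glycine, AMPA, kainate, NMDA and nicotinic receptors are ion channels assembled from several subunits, so that a subunit that cannot assemble alone needs partners from its own family. Metabotropic glutamate receptors signal through G proteins instead. Outside the nervous system nicotinic receptors are known from muscle and from immune cells, where the alpha 7 receptor takes part in cholinergic control of inflammation.

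The deposited expression values, called scaled values here, are rounded products of the reads of a gene model and a factor set for each library by the authors. By estimate, a read was worth between 0.617 and 1.84 scaled units, depending on the library. The libraries held an estimated 22.3 M to 66.5 M reads on gene models. By these factors a value of 0 means that 0 reads were counted, since even the lowest factor rounds 1 read up. The limit taken for such a 0 was an expected count of 3 reads, that is, 1.85 to 5.52 scaled units. This limit covers counting error only. FPKM, the same value divided by gene length, is used wherever levels of different genes are compared. All 9 stem cell markers were measured, with Kit, the stem cell factor receptor, at 56382 and 54958.5 in the young replicates and at 57824 and 63949.5 in the old ones. All 9 were fitted above 0, and Slamf1, which encodes CD150, and Procr rose (limma adjusted p = 0.0226 and 0.0483), while limma-voom called 1 of the 9. Over all tested rows, 56.5% were fitted above 0 and 2.01% were called higher by limma. Slamf1, a marker of the sort itself, was at 1597 and 1735.5 in the young and 3175 and 3083 in the old replicates, and Ly6a, which encodes Sca-1, at 2621 and 2573.5 against 3519 and 5566, not called. The part of these markers in the values of the receptor genes was not tested.

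Few of the receptor subunit genes had an appreciable level in HSCs. Of the 66 genes, 13 were tested because 2 or more of the 4 replicates reached 10 scaled units, against 48% of all rows. Another 36 had a value above 0 in at least 1 library without reaching that level, and 18 of these never exceeded 2. The other 17 were at 0 in all 8 libraries, as were 28.4% of all rows, among them Gabra6, Gabrg3, Gabrr1, Gria1, Grik1, Grin2b, Grm2, Grm5, Glra1, Glra2, Glra3, Chrna3, Chrna4, Chrna6 and Chrnd. Gria1 is a main AMPA receptor subunit of excitatory synapses.

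**Figure D1:**
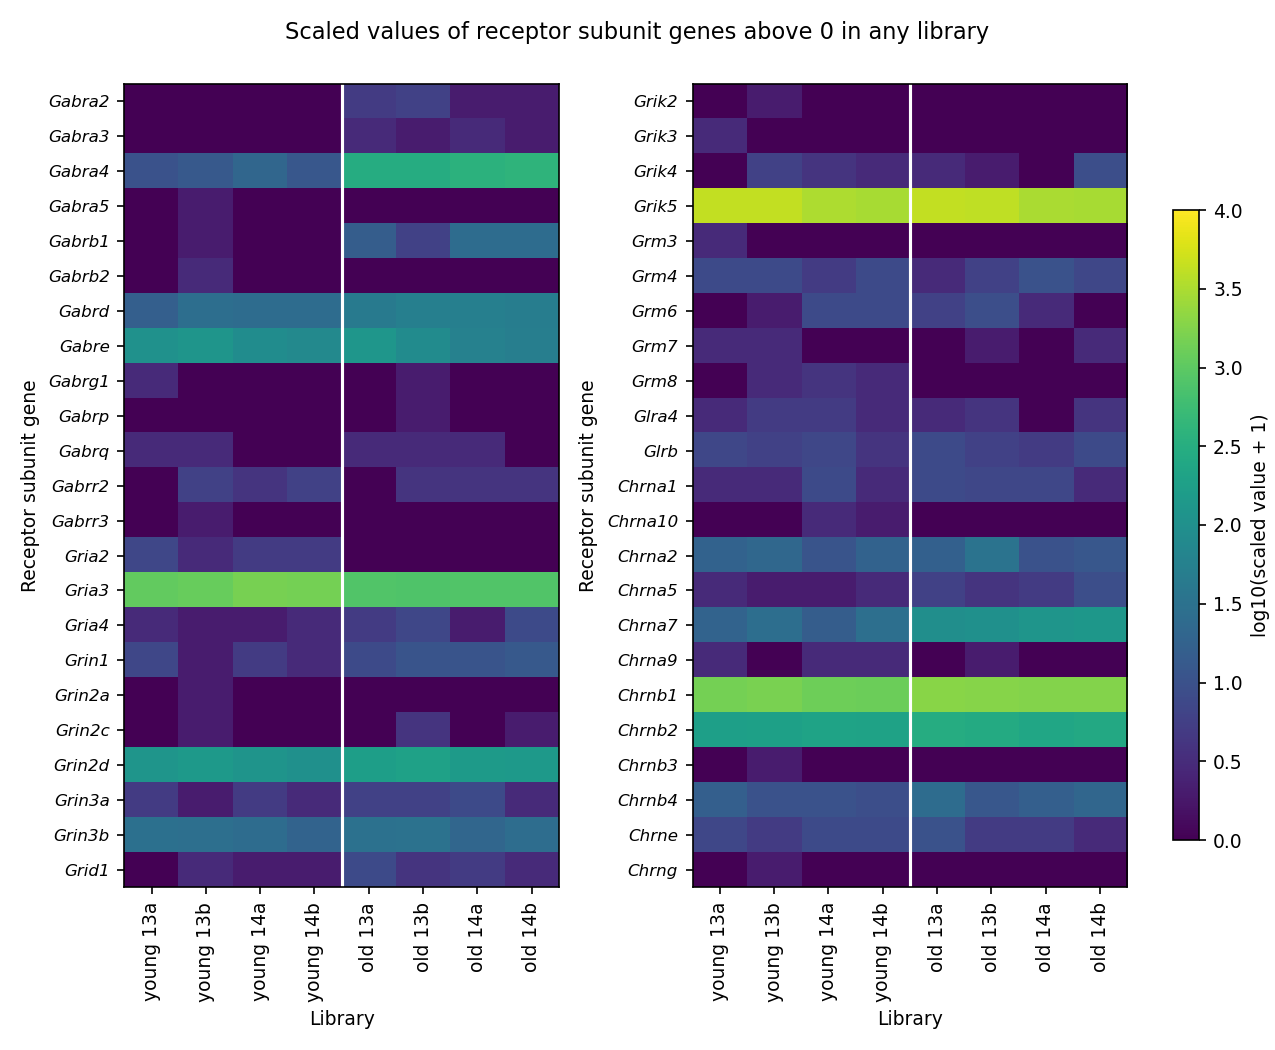
Scaled values of 46 receptor subunit genes above 0 in any library, as log10(value + 1), with a column for each of the 8 libraries (young left of the white line, old right) and a row for each gene. Grik5, Chrnb1 and Gria3 are bright in all libraries, Gabra4 is bright in the 4 old libraries, and most rows are dark throughout.

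By FPKM, 3 genes carried most of the signal of the 66. Grik5, Chrnb1 and Gria3 together made up between 84% and 91.6% of the summed FPKM of all 66 genes in a replicate. Grik5 lay at 22.3 and 16.1 FPKM in the young and 22 and 15.9 in the old replicates, above 88.7% of all rows. Chrnb1 lay at 14.2 and 12 in the young and 17.7 and 16.8 in the old replicates, so the ranges of these highest 2 overlapped. Gria3 came next at 4.35 and 5.72 in the young and 3.08 and 3.21 in the old replicates, apart from Chrnb1 in every replicate. No other gene of the 66 reached a mean of 1 FPKM. Gabra4, Chrnb2, Grin2d, Gabre, Chrna7 and Gabrd followed, with means over the 4 replicates between 0.867 and 0.385 FPKM, and each of these overlapped the next in its replicate values. The lowest tested gene, Chrnb4, had a mean of 0.0805 FPKM. The order of these low genes depends on age, since Gabra4 was at 0.051 and 0.0754 FPKM in the young replicates and at 1.46 and 1.88 in the old ones.

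Across the 13 tested genes, Gabra4 and Chrna7 rose in old HSCs and none fell in the test over all rows, limma with Benjamini-Hochberg adjustment at 0.05. Over all 18318 tested rows, 2.01% were called higher and 0.54% lower. At an unadjusted p under 0.05, 4 of the 13 lay higher and 1 lower, against 8.97% and 5.08% of all tested rows, and limma-voom called the same number, 2 higher and 0 lower. Leaving out old replicate 13 or old replicate 14 left 0 of the 13 called, as it did for all rows, while 2 stayed called without either young replicate. Of the 13 genes, 7 had both old replicates above both young ones and 2 had both below, against 24.7% and 17.4% of all tested rows. In these bulk samples fewer cells of a type and less RNA per cell cannot be told apart. The median log2 fold change, given throughout as old over young after adding 0.5 to each value, was 0.40 for the 13 genes and 0.04 for all tested rows.

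**Figure D2:**
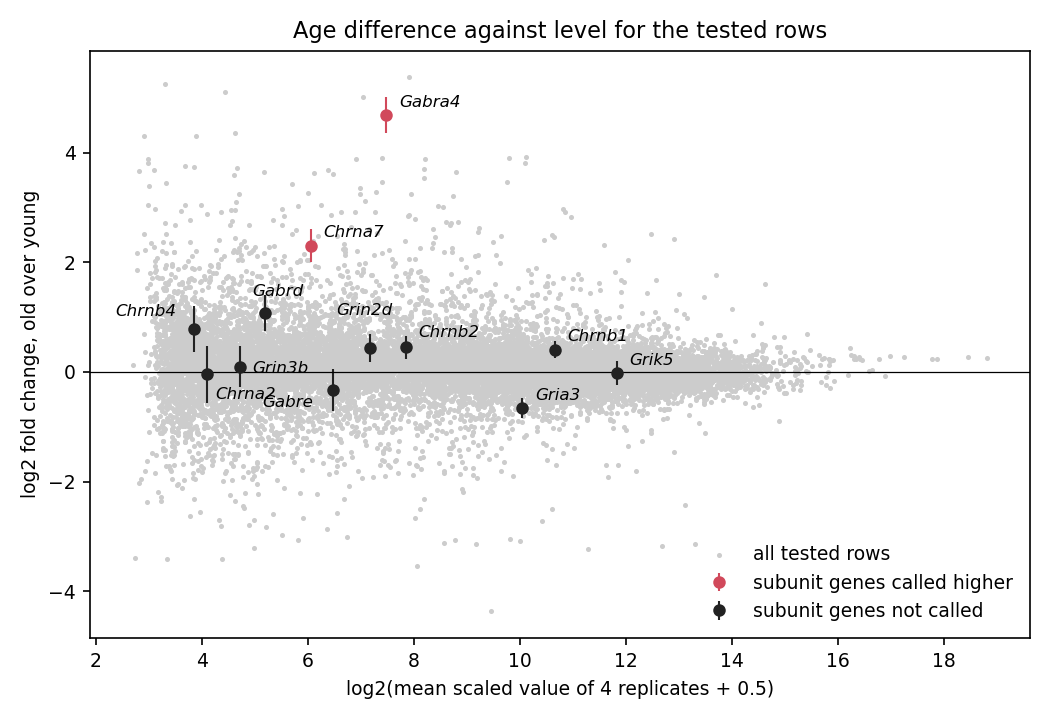
Fitted log2 fold change of old over young against mean level for 18318 tested rows (grey) and 12 tested receptor subunit genes (points, with bars of 1 standard error). Gabra4 at 4.68 and Chrna7 at 2.30 are the called genes, and the other 10 drawn lie between -0.66 and 1.08.

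Among the tested GABA receptor genes, Gabra4 had the highest FPKM in the old replicates and the lowest in the young ones. Gabra4 encodes the alpha 4 subunit, which in the brain pairs mostly with the delta subunit in receptors outside synapses. Its model lies on the minus strand of chromosome 5 from 71960973 to 72049547 in the mm9 build and overlaps no other model. In the young libraries Gabra4 was at 9 and 12 (replicate 13) and at 20 and 11 (replicate 14). In the old libraries it was at 300 and 300 (replicate 13) and at 376 and 398 (replicate 14). Every old library thus lay far above every young one, and the technical libraries of an old replicate were close to each other. The replicate means were 13 ± 3.54 in young and 343.5 ± 61.5 in old HSCs (SD, n = 2 per age), with a log2 fold change of 4.68 (SE 0.32), which ranked 5 among the fitted rises of all tested rows. About 56 reads in the 4 young libraries and 1228 in the 4 old ones lie behind these values.

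Gabrd, which encodes the delta subunit, was at 21 and 25 in the young and 47.5 and 50.5 in the old replicates. The old replicates lay above the young ones, and the gene was not called (log2 fold change 1.08, SE 0.32). Its nearest tested neighbour at lower coordinates was Prkcz, an atypical protein kinase C gene 23.6 kb away that was picked out after its values were seen. Prkcz rose from 27 and 27.5 in the young to 211.5 and 207 in the old replicates. The tested neighbour on the other side, 2010015L04Rik, lay nearer, at 11.1 kb. It was at 103 and 63 in the young and 206.5 and 82.5 in the old replicates, with overlapping ages, and was not called. Gabre, the epsilon subunit gene on the X chromosome, was at 112.5 and 81 in the young and 105.5 and 54 in the old replicates, with overlapping ages and a log2 fold change of -0.34 (SE 0.38).

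The other GABA receptor genes did not exceed 5 in any young library, and Gabrb1 was the only one of them above 5 in any library. Gabrb1, a beta subunit gene, was at 0, 1, 0 and 0 in the young libraries and at 14, 5, 25 and 25 in the old ones, or about 2 and 61 reads in all. With 1 replicate at or above 10 it just missed the level needed for the test, as did Grin1, while Chrnb4 at 12, 8.5, 18 and 17.5 just reached it. With no filter on low values Gabrb1 had a fitted log2 fold change of 4.50 (SE 0.70) and was not called. It was called when the lower-numbered technical libraries alone were used, at 0 and 0 against 14 and 25. There it passed the filter through the old libraries alone, so that call adds no support for a rise. In the higher-numbered ones Gabrb1 was at 1 and 0 against 5 and 25 and was not tested. Gabra2, an alpha subunit gene, was at 0 in all 4 young libraries and at 4, 5, 1 and 1 in the old ones. Gabra3, another alpha subunit gene, was likewise at 0 in the young and at 2, 1, 2 and 1 in the old libraries. Gabrb2, another beta subunit gene, had a value of 2 in a single young library and 0 elsewhere, and Gabrg1 did not exceed 2. Gabrr2, a rho subunit gene, was at 0, 5, 3 and 5 in the young and 0, 3, 3 and 3 in the old libraries, about 17 and 9 reads. Gabrg3, a gamma subunit gene, was at 0 throughout.

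**Figure D3:**
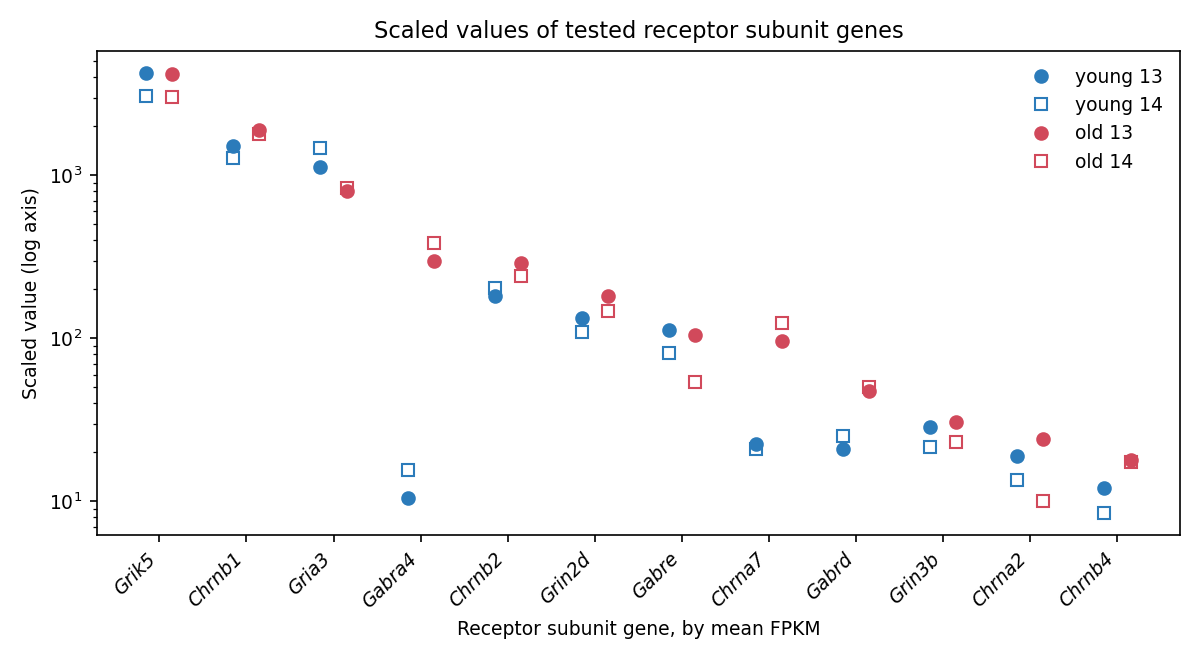
Scaled values (log axis) of 12 tested genes in the 4 biological replicates, averaged over technical libraries and ordered by mean FPKM, with young in blue and old in red. Gabra4 runs from 10.5 and 15.5 to 300 and 387 and Chrna7 from 22.5 and 21 to 96 and 124.5, while Grik5 has nearly the same values at both ages.

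Gabrg1, Gabra2, Gabra4 and Gabrb1 lie next to each other within 1.39 Mb of chromosome 5. Gabra4 and Gabrb1 are transcribed away from each other, and the starts of their mm9 models are 41.7 kb apart. The summed scaled value of these 4 genes was 13.8 in young and 364 in old HSCs, nearly all of it from Gabra4. Cox7b2, a cytochrome c oxidase subunit gene between Gabra2 and Gabra4, was at 1.5 and 2.5 in the young and 4.5 and 5 in the old replicates. Beyond Gabrb1, Commd8 was at 1614.5 and 1890 in the young and 1677.5 and 2203.5 in the old replicates. Atp10d, a phospholipid flippase gene, was at 3880.5 and 3232 against 3674 and 3077. Commd8 and Atp10d overlapped between ages, as did Corin at 30 and 20 against 36.5 and 27.5. The nearest tested row at the higher coordinate, an unnamed model inside the span of Gabrb1 on the other strand, was at 103.5 and 96 in the young and 108 and 117.5 in the old replicates, so that there, as at Cox7b2, the old ones lay above.

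**Figure D4:**
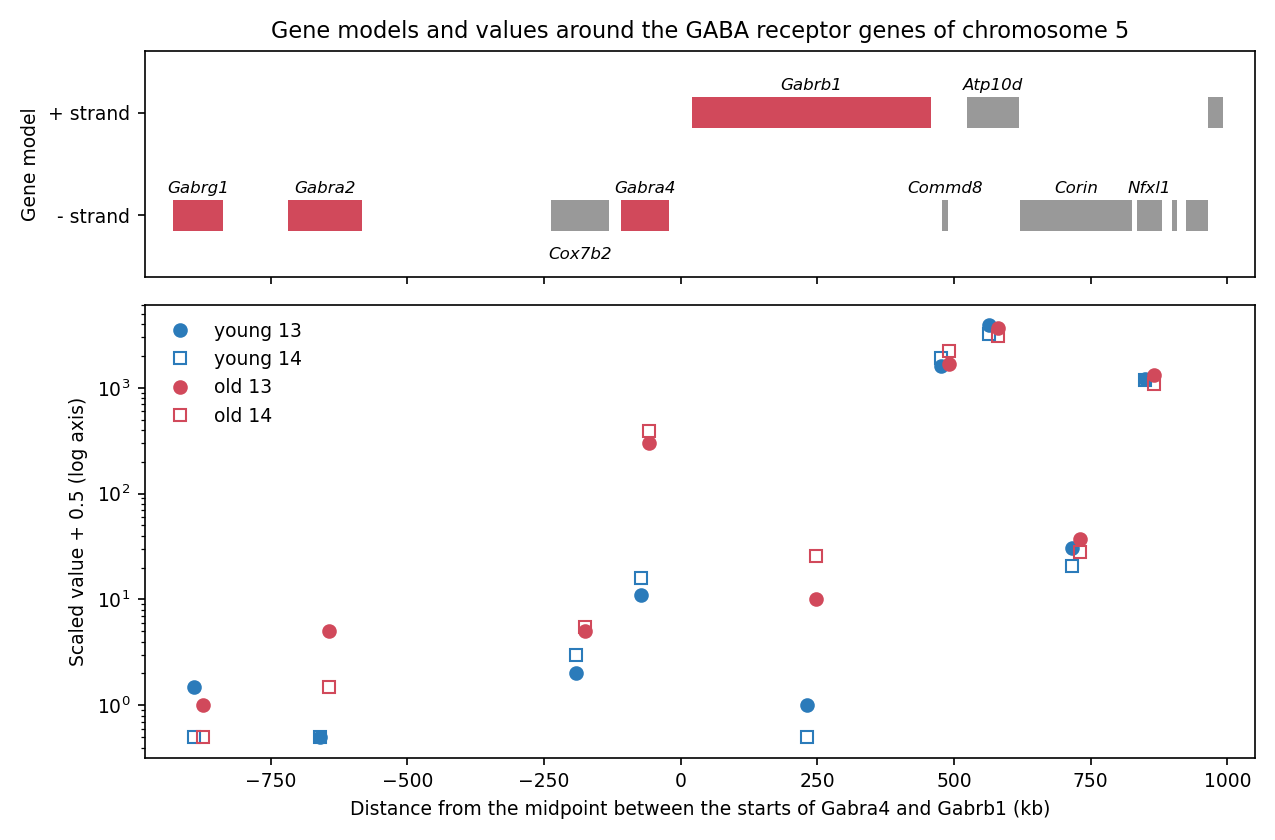
Gene models by strand (top) and scaled values + 0.5 on a log axis (bottom) against distance in kb from the midpoint between the starts of Gabra4 and Gabrb1, with GABA receptor genes in red in the upper panel. Young (blue) and old (red) replicates are apart at Gabra4, Gabrb1, Gabra2 and Cox7b2 and overlap at Commd8, Atp10d and Corin.

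RefSeq places a second, earlier start of Gabrb1 close to that of Gabra4, and the promoter windows of both genes are shown because these 2 neighbours had the largest differences of the block. Each window holds 250 bases before and 50 after the start, in the GRCm38.p6 build, whose coordinates differ from the mm9 ones above, and is written in the direction of the gene with CG dinucleotides in capitals. In that build the Gabra4 start on the minus strand lies 387 bases beyond the earlier Gabrb1 start on the plus strand, so the transcripts overlap at their starts. The later Gabrb1 start is 41.6 kb from that of Gabra4. The windows are Gabra4 at chr5:71658259-71658558, minus strand, then Gabrb1 at chr5:71657671-71657970 and at chr5:71699682-71699981, both plus strand.
Gabra4: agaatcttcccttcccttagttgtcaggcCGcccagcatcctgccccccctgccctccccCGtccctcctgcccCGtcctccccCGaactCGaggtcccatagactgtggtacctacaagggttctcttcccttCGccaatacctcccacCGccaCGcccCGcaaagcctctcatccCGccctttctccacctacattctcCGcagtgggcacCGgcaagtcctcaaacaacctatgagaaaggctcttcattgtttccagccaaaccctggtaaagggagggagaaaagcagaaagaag
Gabrb1, earlier start: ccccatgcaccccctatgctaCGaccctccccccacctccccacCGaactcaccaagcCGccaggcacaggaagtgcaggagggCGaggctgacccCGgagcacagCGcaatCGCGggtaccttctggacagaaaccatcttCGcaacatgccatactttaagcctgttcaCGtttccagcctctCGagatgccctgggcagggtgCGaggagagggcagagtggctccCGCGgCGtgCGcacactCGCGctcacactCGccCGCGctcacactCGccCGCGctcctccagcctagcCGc
Gabrb1, later start: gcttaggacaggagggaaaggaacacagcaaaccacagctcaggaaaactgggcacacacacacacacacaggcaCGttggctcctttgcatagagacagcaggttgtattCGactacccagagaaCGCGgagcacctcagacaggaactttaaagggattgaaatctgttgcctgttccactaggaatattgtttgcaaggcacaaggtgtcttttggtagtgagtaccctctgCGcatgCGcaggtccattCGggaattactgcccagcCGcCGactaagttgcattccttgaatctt
The Gabra4 window holds 12 CG dinucleotides, more than 60.4% of the 32851 promoter windows of the table, whose median is 7. The earlier Gabrb1 window holds 25 and the later one 9. The letters GGGCGG, searched on both strands, occur 2 times in the Gabra4 window and in neither Gabrb1 window, and 35.7% of all windows hold them. TGTGGT, searched likewise, occurs 1 time in the Gabra4 window and 1 time in the later Gabrb1 window, against 16.8% of all windows, and neither GATAAG nor CCGGAAG occurs in any of these 3 windows (7.44% and 8.86% of all windows). Such matches describe the sequence and are not binding data.

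Of the 16 nicotinic receptor genes, 5 were tested and Chrna7 alone was called. Chrna7 encodes the alpha 7 subunit, which forms channels without other subunits. Its model lies on the minus strand of chromosome 7 from 70243578 to 70357412 (mm9) and overlaps no other model. The young libraries were at 18, 27, 14 and 28 and the old ones at 93, 99, 119 and 130. All old libraries exceeded all young ones by more than the technical pairs differed. The means were 21.8 ± 1.06 in young and 110 ± 20.2 in old HSCs (SD, n = 2 per age), with a log2 fold change of 2.30 (SE 0.31), from about 101 and 395 reads. The next tested row was Otud7a, a deubiquitinase gene whose start lies 232 kb from that of Chrna7 on the other strand. Otud7a was at 1.5 and 0 in the young and 13.5 and 11 in the old replicates and was not called. It entered the test through its old replicates alone. On the other side Peg12, an imprinted gene 634 kb away, was at 541.5 and 511 against 695.5 and 731, also not called. The RefSeq promoter of Chrna7 at chr7:63212477-63212776 (GRCm38.p6, minus strand) is shown because it belongs to the second called gene and differs in base composition from that of Gabra4.
Chrna7: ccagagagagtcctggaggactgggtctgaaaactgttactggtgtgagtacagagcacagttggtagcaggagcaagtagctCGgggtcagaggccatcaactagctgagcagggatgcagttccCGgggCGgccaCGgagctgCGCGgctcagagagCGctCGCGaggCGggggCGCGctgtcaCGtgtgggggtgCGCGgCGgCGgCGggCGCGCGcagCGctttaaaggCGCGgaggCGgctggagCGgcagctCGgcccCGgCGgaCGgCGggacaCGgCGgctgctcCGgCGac
It holds 35 CG dinucleotides, in capitals, more than 93% of all windows, against the 12 of Gabra4. Over the 46 genes of the 66 that had a promoter in the table, the median was 12 in the 9 windows of tested genes and 10 in the 45 windows of the others.

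The other tested nicotinic genes encode the muscle beta 1 subunit and subunits of neuronal receptors. Chrnb1 was at 1516 and 1285 in the young and 1895.5 and 1795.5 in the old replicates, with both old ones above and a log2 fold change of 0.40 (SE 0.15), not called. Its partners in the muscle receptor were scarce, with Chrna1 at 2 to 7 and Chrne at 2 to 9 over the libraries, Chrng at 1 in a single library and Chrnd at 0. Chrnb2, which with alpha 4 forms the main nicotinic receptor of the brain, was at 183 and 204.5 in the young and 289 and 241.5 in the old replicates (log2 fold change 0.45, SE 0.21), and Chrna4 was at 0. Chrnb2 touches Adar on the other strand at its end, so a few of its reads cannot be assigned if strand was not used. Chrna2 was at 19 and 13.5 against 24 and 10, with overlapping ages (log2 fold change -0.04, SE 0.52). Chrnb4, of the cluster with Chrna5 and Chrna3 on chromosome 9, was at 12 and 8.5 in the young and 18 and 17.5 in the old replicates (0.78, SE 0.41). In the same cluster Chrna5 was at 1.5 in both young replicates and at 4 and 6 in the old ones.

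Of the AMPA and kainate receptor genes only 1 each was tested and of the NMDA receptor genes 2, and none of them was called. Grik5 encodes a kainate receptor subunit that reaches the cell surface only together with the subunits of Grik1, Grik2 or Grik3. The young libraries were at 4237, 4273, 3162 and 2992, and the old ones at 4218, 4172, 3105 and 2950. Replicate 13 was high and replicate 14 low at both ages, and the ages overlapped, with a log2 fold change of -0.02 (SE 0.22). Grik1 was at 0 in all libraries, Grik2 and Grik3 each had a value above 0 in a single young library, of 1 and 2, and Grik4 did not exceed 8.

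Gria3, an AMPA receptor subunit gene on the X chromosome, was at 1096, 1156, 1500 and 1459 in the young libraries and at 810, 786, 833 and 829 in the old ones. All old libraries lay below all young ones, the young replicates differed more than the old ones, and the log2 fold change of -0.66 (SE 0.18) was not called. Gria2, the subunit that makes AMPA receptors impermeable to calcium, was at 6, 2, 4 and 4 in the young libraries, about 15 reads, and at 0 in the 4 old ones. Gria4 did not exceed 7 and Gria1 was at 0.

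Among NMDA receptor genes, Grin2d was at 133.5 and 109.5 in the young and 183 and 146.5 in the old replicates, which lay above the young ones without being called (log2 fold change 0.44, SE 0.25). Grin3b, a subunit that can replace others and lowers calcium entry, was at 28.5 and 21.5 against 30.5 and 23, with overlapping ages (log2 fold change 0.10, SE 0.37), and its end overlaps an abundant model on the other strand. Grin1, the subunit that every NMDA receptor requires, was at 3.5 and 3 in the young and 8.5 and 11 in the old replicates, about 11 and 35 reads. Grin2a had a value of 1 in a single library and Grin2b was at 0. Grid1, a delta receptor gene, did not exceed 7.

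Of the metabotropic glutamate receptors, Grm4 and Grm6 ranged up to 9 and 8, Grm8 was at 0, 2, 3 and 2 in the young and at 0 in the old libraries, and Grm3 and Grm7 did not exceed 2. None of the 5 glycine receptor genes was tested. Glrb, the beta subunit that binds gephyrin, ranged from 3 to 7 over the libraries and Glra4, an alpha subunit gene, from 0 to 4.

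Of the 66 genes, 49 had an FDR in the authors' deposited table, and 6 had one under 0.05. These were Gabra4 (FDR 3.17e-88), Chrna7 (1.77e-15), Gabrb1 (5.82e-08), Gria3 (1.22e-06), Gabrd (0.0161) and Chrnb1 (0.0422), in the authors' deposited table. There Gabra4, Chrna7 and Chrnb1 are marked higher in old HSCs and Gria3 lower, while Gabrb1 and Gabrd carry no mark. Of the 22284 rows with an FDR in the authors' deposited table, 6% are marked higher and 5.82% lower. These shares stand beside the 3 marked higher and 1 marked lower of the 49, not beside the 6 under 0.05. The share of all rows with an FDR under 0.05 was not worked out, so nothing is read from the 6. Which libraries were treated as replicates in that comparison is not given in the sources used here.

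Genes that make, move or anchor the transmitters and their receptors were taken from lists chosen by function. Of 118 matched genes 75 were tested, 5 rose (limma adjusted p under 0.05) and 0 fell, with 16 and 2 at an unadjusted p under 0.05, while limma-voom called 4 and 0. This stands beside the 2.01% of all tested rows called higher and 0.54% called lower, and beside 8.97% and 5.08% at an unadjusted p under 0.05, and the median log2 fold change of the 75 was 0.08. Without young replicate 14 only 2 were called higher, and 0 without old replicate 13 or old replicate 14.

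For GABA, 1 of 4 tested genes rose in the synthesis and transport list, which also holds the GABA-B receptor genes. Abat, the transaminase that breaks GABA down, rose from 206 and 182 to 513 and 570 (log2 fold change 1.48, SE 0.19, limma adjusted p = 0.0137, and 0.0794 without young replicate 14). Gad1 and Gad2, the enzymes that make GABA, did not exceed 2 in a replicate mean, and neither did Slc32a1, which loads it into vesicles. Gabbr1, a subunit of the G protein-coupled GABA-B receptor, was at 4617.5 and 3315.5 in the young and 5341.5 and 3095.5 in the old replicates, and its partner Gabbr2 at 7.5 and 2 against 11 and 8. Of 12 tested scaffold and auxiliary genes of GABA and glycine receptors, Shisa7 and Plcl1 rose. Shisa7, an auxiliary protein of GABA-A receptors, rose from 83 and 109.5 to 486.5 and 427 (log2 fold change 2.25, SE 0.23, limma adjusted p = 0.00634). Plcl1, a phospholipase-like protein that binds GABA-A receptor subunits and their trafficking protein, rose from 1238 and 1224 to 2626 and 3151 (log2 fold change 1.22, SE 0.15, limma adjusted p = 0.0122). Its adjusted p was 0.0662 without young replicate 13 and 0.0854 without young replicate 14. Gphn, which encodes the scaffold gephyrin, was at 1410 and 1569.5 against 1677.5 and 1662.5. The 3 genes of this list with the highest FPKM, Gabarapl1, Gabarap and Ubqln1, had log2 fold changes of 0.39, 0.26 and -0.03 and were not called.

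For glutamate, 1 of 14 tested synthesis and transport genes rose. Slc1a1, a glutamate and cysteine carrier of the plasma membrane, rose from 29 and 25 to 96.5 and 92.5 (log2 fold change 1.79, SE 0.29, limma adjusted p = 0.0295), and under 8 of the 11 alternative settings tried, limma-voom (adjusted p = 0.0509) included, it was not called (adjusted p from 3.88e-05 to 0.294 over the settings). Glul, which encodes glutamine synthetase and had the highest FPKM of the list, was at 20590.5 and 23707 in the young and 28682.5 and 40761 in the old replicates, not called. Glud1 and Got2, mitochondrial enzymes of glutamate, came next with log2 fold changes of 0.08 and 0.02, not called. Of 26 tested glutamate receptor scaffold genes 0 were called by limma or limma-voom, with 5 higher at an unadjusted p under 0.05. Sqstm1, Grina and the row that joins Cbx6, Npcd and Nptxr had the highest FPKM there, with log2 fold changes of 0.08, 0.48 and 0.19. Cacng7, an AMPA receptor auxiliary subunit gene singled out after its values were seen, had the largest fitted difference of the list. It was at 4 and 1.5 in the young and 20 and 17.5 in the old replicates (log2 fold change 2.68, limma adjusted p = 0.0643, not called). Cacng7 entered the test through its old replicates alone, so its fitted value adds no support for a rise. None of 5 glycine genes was called by either tool, with 0 at an unadjusted p under 0.05.

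For acetylcholine, 1 of 5 tested genes rose in the synthesis and transport list, which also holds the muscarinic receptor genes. Chrm3, a muscarinic receptor that couples to Gq proteins, rose from 162.5 and 183.5 to 964 and 1064.5 (log2 fold change 2.55, SE 0.18, limma adjusted p = 0.00197). Chat, which makes acetylcholine, was at 0 in every replicate and its vesicular carrier Slc18a3 had a mean of 0.5 in a single one. Ache, which breaks acetylcholine down, had the highest FPKM of the list and a log2 fold change of -0.18, and Slc44a1, a choline carrier, and Crat, an acetyl transferase, had 0.52 and -0.06, none of them called. Of 9 tested scaffold and auxiliary genes of nicotinic receptors 0 were called by limma or limma-voom, with 2 lower at an unadjusted p under 0.05. Ly6e, a surface protein of the family of nicotinic receptor modulators, had the highest FPKM there and a log2 fold change of 0.46.

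**Figure D5:**
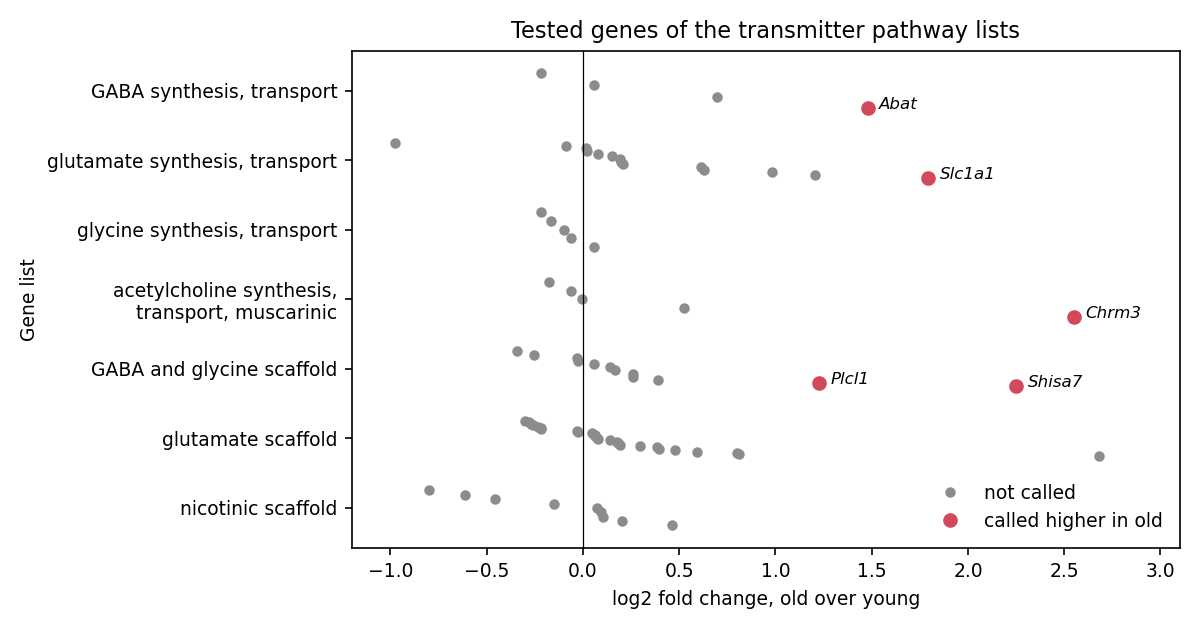
Fitted log2 fold change of old over young for the 75 tested genes of 7 transmitter lists, with a point per gene. The lists cover synthesis, transport and scaffold genes. Those for GABA and acetylcholine synthesis and transport also hold GABA-B and muscarinic receptor genes. The 5 called genes, Abat, Slc1a1, Chrm3, Plcl1 and Shisa7, lie between 1.22 and 2.55, and most other points lie near 0.

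Markers of neurons and glia were checked because these receptors are best known from the nervous system. Of 13 matched neuron markers 3 were tested and 0 were called by limma or limma-voom, with 1 higher at an unadjusted p under 0.05. The neuron markers summed to 142.5 and 122.5 in the young and 197 and 279.5 in the old replicates. The largest part in each replicate came from the glutamate vesicle carrier Slc17a7, at 97 and 61 against 147.5 and 214.5. Elavl4, also tested, was at 26 and 37.5 in the young and 37.5 and 44 in the old replicates. Of the markers that head the list, Rbfox3 and Snap25 were near 0, with Rbfox3 at 1 and 0.5 in the young and 0 in the old replicates and Snap25 at no more than 2.5. Tubb3 was at 14.5 and 19.5 against 6.5 and 15.5. Of 9 markers of Schwann cells and glia 5 were tested and 0 were called by limma or limma-voom, with 1 higher at an unadjusted p under 0.05. They summed to 8006.5 and 8442.5 in the young and 7861.5 and 8980 in the old replicates, nearly all from Mbp, and Sox10, a defining marker, was at 0 in every replicate. Skeletal muscle markers, which bear on the muscle subunit gene Chrnb1, summed to 123 and 116.5 against 105 and 103.5. Of markers of other blood and marrow cells, limma called 4 of 8 erythroid and 3 of 8 stroma genes lower. It called 1 of 6 megakaryocyte, 2 of 7 endothelial and 1 of 2 T or NK cell genes higher. With limma-voom 3 erythroid genes were called lower, with the same numbers in the other lists named. Fitted below 0 were 2 megakaryocyte and 4 endothelial genes. Nkg7, the other T or NK cell gene, went from 1281 and 2138 to 696 and 983, not called. Over all tested rows 2.01% were called higher and 0.54% lower. The erythroid markers summed to 9227.5 and 10931 in the young and 4649.5 and 4820 in the old replicates. The stroma markers summed to 4867.5 and 4331 in the young replicates and lay below both values in each old one. Neutrophil markers summed to 6062.5 and 18282 in the young and 1143 and 7084 in the old replicates. Of the 9 tested, 0 were called by limma or limma-voom. Monocyte or macrophage markers summed to 8880 and 24451.5 in the young and 9201 and 17696.5 in the old replicates. Mast cell or basophil markers summed to 673.5 and 5331 against 1257.5 and 1785.5. In these lists young replicate 14 lay far above young replicate 13. No monocyte, mast cell or B cell gene was called by either tool. The part of these cells in the values above was not tested.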

How the data were processed

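PolyA-selected RNA was measured in 8 libraries, per the labels' protocols. The deposited scaled values are a score, whole numbers that result from the authors' scaling of each library's reads. Each library's factor was estimated from the numbers it skips or doubles, with errors of at most 0.00772% on 8 simulated libraries. In the real libraries the pattern of numbers correlated with that predicted from the factor at r between 0.48 and 0.973. The read numbers rest on these estimates. The deposited FPKM is this score times 1 constant per gene. The authors' table also gives log2 fold changes and an FDR, that is, adjusted p-values. Coordinates are mm9 and DESeq is named without a role, per the submitters' processing notes. Aligner, counter and use of strand are not stated there.

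Scaled values were averaged over technical libraries and, after adding 0.5, log2 transformed. The 4 replicates entered limma 3.58.1 (R 4.3.3) with a term for age, a trended prior and two-sided tests, and p-values were adjusted by Benjamini-Hochberg over the 18318 rows with at least 10 scaled units in 2 or more replicates. The fit was run on simulated data drawn from its own fitted variances, with no effect of the replicate number. That run checks the code and not how well the model describes these samples. With n = 2 per age and no statement of separate animals, the p-values reflect the spread of these samples, which may be technical. The members and lists were chosen with earlier results of these data known. Some genes are counted in totals but are not reported here by name, nor drawn singly. Otherwise the naming rule took every tested member, the 8 highest and the zero members among the others, the called genes of each list, the 3 with the highest FPKM, the neighbours of called members and the first 3 markers of a list. Genes named beyond it were chosen after their values were seen. They were other low members, the rest of the chromosome 5 block, the neighbours of Gabrd and the transmitter enzymes and carriers near 0. Gabbr2, Gphn and some markers were also named in this way. Alternatives changed the pseudocount, filter, scaling, tool, technical libraries, replicates left out and replicate block.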

Additional observations from a re-analysis of the deposited data

How the results depend on the processing

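Gabra4 and Chrna7 stayed called higher with a pseudocount of 5, median-ratio factors, limma-voom, either set of technical libraries and without either young replicate. With no filter on low values 0 subunit genes were called higher and 0 pathway genes, as 0 of all 27330 rows then passed. Leaving out 1 replicate gave between 0 and 2 subunit genes called higher and 0 lower, and between 0 and 4 pathway genes higher and 0 lower (2 without young replicate 14); limma called 0 of all rows without old replicate 13 (3669 at an unadjusted p under 0.05) or old replicate 14 (1933), where the lone old sample is assumed to vary like the young ones.

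Both ages share the numbers 13 and 14, and the difference between them correlated over rows with r = 0.54 between ages, but the labels do not say what a number marks. With the replicate block 4 subunit genes were called higher (Chrna7, Chrnb1, Gabra4 and Gabrd) and 1 lower (Gria3), and 17 pathway genes higher and 2 lower, while it called 9.27% of all rows higher and 5.83% lower.

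Genes with values near no change turned sign when 1 replicate was left out: Chrna2 ranged from -0.65 to 0.57 on the log2 scale, Gabre from -0.82 to 0.14, Grik5 from -0.26 to 0.21 and Grin3b from -0.10 to 0.30. Grin3b was at -0.13 in the lower-numbered technical libraries. None of the 4 was called in any setting. The cause of these differences was not tested. Depth limits what can be said of the 53 untested genes, and a value of 0 does not show absence.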
